A study of Mus musculus with 6 samples.

Results

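The EGF family of growth factors signals through 4 receptor tyrosine kinases of the ErbB family. Here 9 genes of this system, 5 ligands (Tgfa, Hbegf, Nrg1, Nrg4 and Btc) and 4 receptors (Egfr, Erbb2, Erbb3 and Erbb4), were taken by gene name from a table of 46450 gene symbols. All 9 were in the table, and 7 passed the filter on low values described below. Messenger RNA was measured by RNA sequencing in cardiomyocytes (the heart's contractile cells) isolated from adult C57BL/6 mice aged 3 months. There were 3 wild-type (WT) libraries and 3 TFEB-/- libraries. TFEB is a transcription factor known as an activator of lysosomal and autophagy genes. The allele, any Cre driver, the sex of the mice and whether each library came from 1 animal are not given in the sources used here, so p-values measure only the spread between these samples.

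As background, EGF-family ligands are made as membrane-anchored precursors, and metalloproteases release the active growth factor. TGF-alpha binds the EGF receptor, HB-EGF and betacellulin bind the EGF receptor and ErbB4, and the neuregulins bind ErbB3 or ErbB4. ErbB2 binds no ligand and acts as the preferred partner of the other receptors, while the kinase activity of ErbB3 is weak. In the heart, neuregulin 1 from endothelial cells acting on ErbB4 and ErbB2 of cardiomyocytes is needed for trabeculation and for maintenance of the adult muscle.

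The deposited values were CPM (reads of a gene scaled to a common library total), rounded to whole numbers. If rounding was to the nearest whole number, a listed 1 stands for 0.5 to 1.5 CPM and a listed 0 for less than 0.5 CPM. The library depths are not in the table, so no counting error can be given. The 6 libraries summed to between 999505 and 999655 CPM, and 12070 to 12664 symbols reached 1 CPM in a library. Transcripts of the mitochondrial genome made up 30.7 to 44.6% of the WT libraries and 22.2 to 30.3% of the TFEB-/- libraries. All 12 cardiomyocyte markers were measured, and they summed to between 61739 and 85883 CPM in WT and between 74936 and 98192 CPM in TFEB-/-. Tfeb itself was at 17, 30 and 23 CPM in WT and at 6, 5 and 7 CPM in TFEB-/-, a log2 change of −1.85 (SE 0.24, limma adjusted p = 0.0267, and 0.0589 to 0.109 without any one library except WT replicate 1). In limma, at an adjusted p below 0.05, 552 of the 12437 genes tested (4.44%) were called, 487 higher (3.92%) and 65 lower (0.523%). The median log2 change of all genes tested was 0.24.

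Tgfa was chosen by its values in this contrast, 0 in WT against detection in TFEB-/-, so they are given as a description with no test, and the other 8 members were taken as its family. It encodes TGF-alpha, a ligand of the EGF receptor (ENSMUSG00000029999; GRCm38 chromosome 6, 86195223 to 86275719, plus strand, protein coding). Tgfa was listed at 0 CPM in all 3 WT libraries and at 8, 5 and 4 CPM in TFEB-/- replicates 1, 2 and 3. The TFEB-/- mean was 5.67 ± 2.08 CPM (SD, n = 3), and the groups did not overlap. No fold is given against a group listed at 0. Among the genes tested, 121 (0.973%) were listed at 0 in every WT library and at 1 CPM or more in every TFEB-/- library. They passed the filter through their TFEB-/- values alone, and many were at 1 CPM in all 3, a single rounding step. Tgfa had the highest TFEB-/- mean of these, a place that lends it no support, since it was chosen by this pattern. The next highest were Lpar3, encoding a receptor of lysophosphatidic acid, with 8, 3 and 5 CPM, and the slow skeletal troponin I gene Tnni1 at 12, 1 and 2 CPM. Tnni1 was thus carried mainly by TFEB-/- replicate 1, which was also the highest library for Tgfa and Lpar3.

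The 250 bases before the annotated start of a gene are shown for Tgfa and Erbb2. Tgfa was chosen by its values in this contrast, and Erbb2 was the receptor gene with the largest difference between the groups. Both are on the plus strand, 5′ to 3′, from RefSeq's annotation of GRCm38.p6 (chr6:86194972-86195221 and chr11:98412234-98412483). Capitals mark matches to CANNTG, the general E-box.
Tgfa: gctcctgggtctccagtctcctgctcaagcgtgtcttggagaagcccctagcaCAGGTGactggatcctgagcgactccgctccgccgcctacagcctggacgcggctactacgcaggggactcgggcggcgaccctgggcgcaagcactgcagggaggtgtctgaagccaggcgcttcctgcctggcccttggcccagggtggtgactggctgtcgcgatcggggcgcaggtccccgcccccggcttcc
Erbb2: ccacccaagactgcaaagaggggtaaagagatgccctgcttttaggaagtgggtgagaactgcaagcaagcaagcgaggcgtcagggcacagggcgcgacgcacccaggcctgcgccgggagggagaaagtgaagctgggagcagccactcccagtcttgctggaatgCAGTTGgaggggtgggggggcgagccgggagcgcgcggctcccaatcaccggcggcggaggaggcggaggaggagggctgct

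Both stretches are rich in G and C (69.2% for Tgfa and 66.0% for Erbb2), and each holds 1 CANNTG. TFEB is known to bind the CLEAR element, an extended E-box whose core is CACGTG. Windows of 300 bases around the RefSeq start, 250 before and 50 after, were found for 6 of the 9 members (Tgfa, Btc, Nrg4, Egfr, Erbb2 and Erbb4). RefSeq starts can differ from the gene spans given here, which are from GENCODE M21. The 250 bases for Nrg4 (chr9:55283626-55283875) lie inside its span, and the last bases of the Erbb2 stretch lie inside that of Erbb2. Searched on both strands, 0 of these 6 windows held CACGTG. Of all 32851 windows in the table, 7.15% held CACGTG and 72.3% held CANNTG, of which CACGTG is one form. These counts describe the letters of the windows only.

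**Figure D1:**
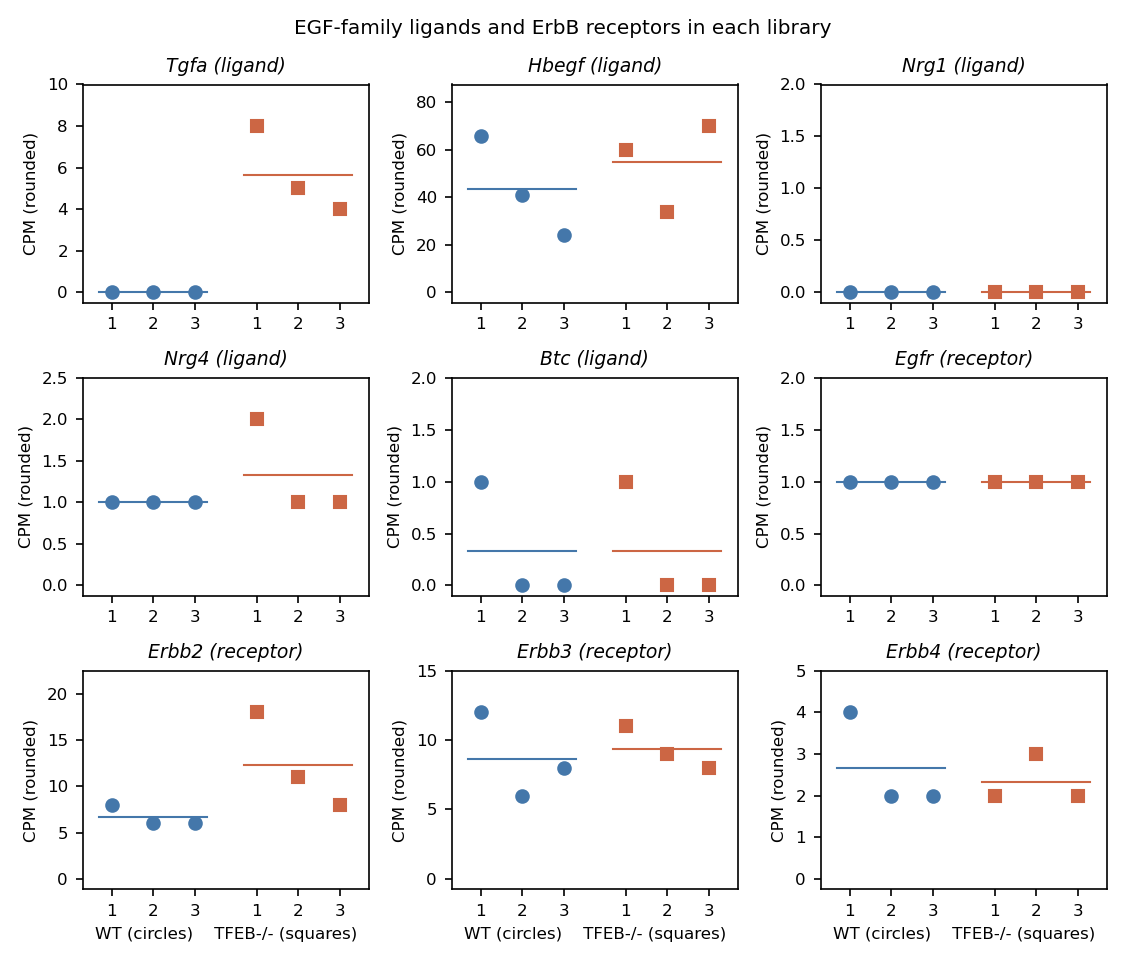
CPM of each member (vertical axes, rounded as deposited, each with its own scale) in the 3 WT libraries (circles) and the 3 TFEB-/- libraries (squares), with the group mean as a line. Tgfa is at 0 in all WT libraries and at 4 to 8 CPM in TFEB-/-, and in the other 8 members the groups overlap.

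Of the other ligands, Hbegf was the most abundant and Nrg1 was not detected. Hbegf encodes HB-EGF, the heparin-binding ligand of the EGF receptor and ErbB4 (ENSMUSG00000024486; chromosome 18, minus strand). It was at 66, 41 and 24 CPM in WT and at 60, 34 and 70 CPM in TFEB-/-. Group means reached 43.7 ± 21.1 and 54.7 ± 18.6 CPM (SD, n = 3 each). The highest and lowest WT libraries differed more than the group means did, and the groups overlapped. The log2 change was 0.37 (SE 0.47, 95% interval −0.85 to 1.60, limma adjusted p = 0.637). Among the TFEB-/- libraries, replicate 2 was the lowest for Hbegf and also for Fos and Egr1, early-response transcription factor genes. Fos was at 1188, 526 and 1232 CPM there and at 761, 629 and 577 CPM in WT, and the part of such genes in the spread of Hbegf was not tested.

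Nrg1, the ligand that acts on ErbB4 in the heart (ENSMUSG00000062991; chromosome 8, 31814551 to 32884029, minus strand), was listed at 0 CPM in all 6 libraries. Endothelial cells are its known source in the heart. The 12 endothelial markers were all measured, and they summed to 447 to 541 CPM in WT and 404 to 480 CPM in TFEB-/-. In bulk samples, fewer cells of a type and less RNA per cell cannot be told apart. Endothelial RNA was therefore present in each library while Nrg1 stayed under the rounding limit.

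Nrg4, a neuregulin that binds ErbB4 (ENSMUSG00000032311; chromosome 9, 55220222 to 55326844, minus strand), had 1 CPM in all WT libraries and 2, 1 and 1 CPM in TFEB-/-. The log2 change was 0.25 (SE 0.22, 95% interval −0.33 to 0.83, limma adjusted p = 0.515), and it came from a single rounding step in TFEB-/- replicate 1. Rounding alone allows a ratio of the TFEB-/- to the WT mean between 0.556 and 3.67. Btc, encoding betacellulin (ENSMUSG00000082361; chromosome 5, 91357261 to 91402994, minus strand), had 1, 0 and 0 CPM in WT and again 1, 0 and 0 CPM in TFEB-/-. It did not pass the filter of at least 1 CPM in at least 3 libraries and was not tested, nor was Nrg1.

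The receptor with the largest difference between the groups was Erbb2, but it did not pass the threshold. Erbb2, the receptor without a ligand of its own (ENSMUSG00000062312; chromosome 11, 98412470 to 98437716, plus strand), had 8, 6 and 6 CPM in WT. TFEB-/- replicates 1, 2 and 3 had 18, 11 and 8 CPM. Mean levels were 6.67 ± 1.15 and 12.3 ± 5.13 CPM (SD, n = 3 each). Replicates 1 and 2 of TFEB-/- lay above every WT library, and replicate 3 equalled WT replicate 1. The log2 change was 0.78 (SE 0.32, 95% interval −0.05 to 1.61, unadjusted p = 0.0611, limma adjusted p = 0.231). Without TFEB-/- replicate 1 the log2 change fell to 0.48 (limma adjusted p = 0.422). Tgfa and Erbb2 had the same order of the TFEB-/- libraries, replicate 1 highest and replicate 3 lowest. How many of all genes share this order was not counted, so it does not tie the 2 genes together.

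Erbb3, the receptor that signals mainly through PI3-kinase after pairing with ErbB2 (ENSMUSG00000018166; chromosome 10, 128567523 to 128589652, minus strand), had 12, 6 and 8 CPM in WT and 11, 9 and 8 CPM in TFEB-/-. The groups overlapped fully, with a log2 change of 0.14 (SE 0.28, 95% interval −0.57 to 0.86, limma adjusted p = 0.772). It was −0.08 once the libraries were rescaled by their median ratio. Erbb3 is known from Schwann cells, and the 9 Schwann and glial markers summed to 5 to 6 CPM in WT and 8 to 18 CPM in TFEB-/-. The most abundant of them in each TFEB-/- library was the adhesion molecule Ncam1, at 1 CPM in each WT library and at 10, 4 and 3 CPM in TFEB-/-. Without Ncam1 the sums overlapped at 4 to 5 and 4 to 8 CPM. The part of these markers in the level of Erbb3 was not tested.

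Erbb4, the neuregulin receptor known from cardiomyocytes (ENSMUSG00000062209; chromosome 1, 68032186 to 69108059, minus strand), had 4, 2 and 2 CPM in WT and 2, 3 and 2 CPM in TFEB-/-. The log2 change was −0.12 (SE 0.30, 95% interval −0.89 to 0.65, limma adjusted p = 0.827), and it turned to 0.16 without WT replicate 1. Egfr, the receptor of TGF-alpha (ENSMUSG00000020122; chromosome 11, 16752203 to 16918158, plus strand), had 1 CPM in every library. With no spread in either group its limma values carry no information, and rounding allows any ratio of the means between 0.333 and 3.00. Tgfa was thus detected in TFEB-/- in libraries where the transcript of its receptor was at the lowest nonzero value of the table.

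Of the 6 members other than Tgfa that passed the filter, 0 were called in limma at an adjusted p below 0.05, and 0 had an unadjusted p below 0.05. Over all genes tested, 4.44% were called in limma and 23.3% had an unadjusted p below 0.05. With 6 members, 0 calls lies near the first share. The groups did not overlap in 0 of these 6 members, against 23.4% of all genes tested. The intervals of Hbegf, Nrg4, Erbb2, Erbb3 and Erbb4 each include both 0 and the median change of all genes, and their bounds, from −0.89 to 1.61, show the sizes of change these libraries leave possible.

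**Figure D2:**
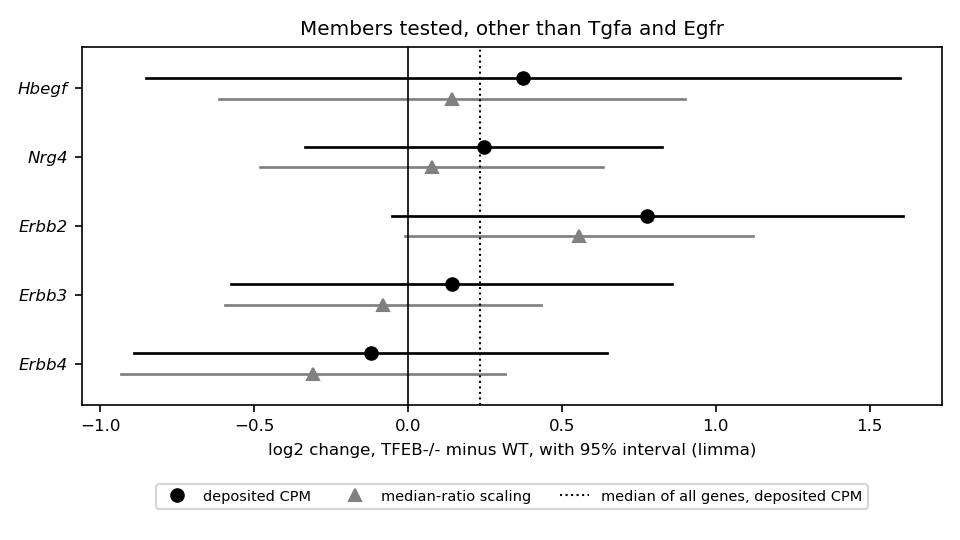
Log2 change (horizontal axis, TFEB-/- minus WT) with its 95% interval from limma for the 5 tested members other than Tgfa and Egfr, on the deposited CPM (black circles) and after median-ratio scaling (grey triangles). Each interval includes 0, and Erbb2 lies farthest to the right at 0.78.

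Levels of different genes were compared per kilobase of the longest protein-coding transcript in GENCODE M21, on the assumption that the deposited CPM were not already scaled by length. In WT, Hbegf was highest at 18.4 CPM per kb (range 10.1 to 27.8), apart from all others. Erbb3 (1.44 CPM per kb, range 0.997 to 1.99) and Erbb2 (1.33 CPM per kb, range 1.20 to 1.60) followed and overlapped. Nrg4 came next at 0.519 CPM per kb and then Erbb4 at 0.222 (range 0.166 to 0.332). The rounding limits of these neighbours overlap (0.259 to 0.778 for Nrg4 and 0.125 to 0.374 for Erbb4), so their order is not settled. Btc at 0.116 and Egfr at 0.0980 CPM per kb did not separate, and Nrg1 and Tgfa were listed at 0.

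In TFEB-/- Hbegf again stood apart at 23.0 CPM per kb (range 14.3 to 29.5). Erbb2 (2.46 CPM per kb, range 1.60 to 3.59), Erbb3 (1.55, range 1.33 to 1.83), Tgfa (1.25, range 0.884 to 1.77) and Nrg4 (0.692, range 0.519 to 1.04) each overlapped their neighbour in the order. Tgfa, level with Nrg1 at 0 in WT, was thus the fourth in TFEB-/-, at a level per kb not separated from those of Erbb3 and Nrg4. Erbb4 at 0.194 CPM per kb (range 0.166 to 0.249) came next, and its rounding limits (0.125 to 0.291) overlap those of Nrg4 (0.259 to 1.3). With the median length of the coding transcripts in place of the longest, 4 of the 9 members kept their place in the TFEB-/- order. By group means, Tgfa then reached 2.3 CPM per kb, above Erbb3, and Egfr 0.340 CPM per kb, above Erbb4 at 0.198. At this length the ranges of Tgfa and Erbb3 overlap, as do the rounding limits of Egfr and Erbb4. Neither order is settled.

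**Figure D3:**
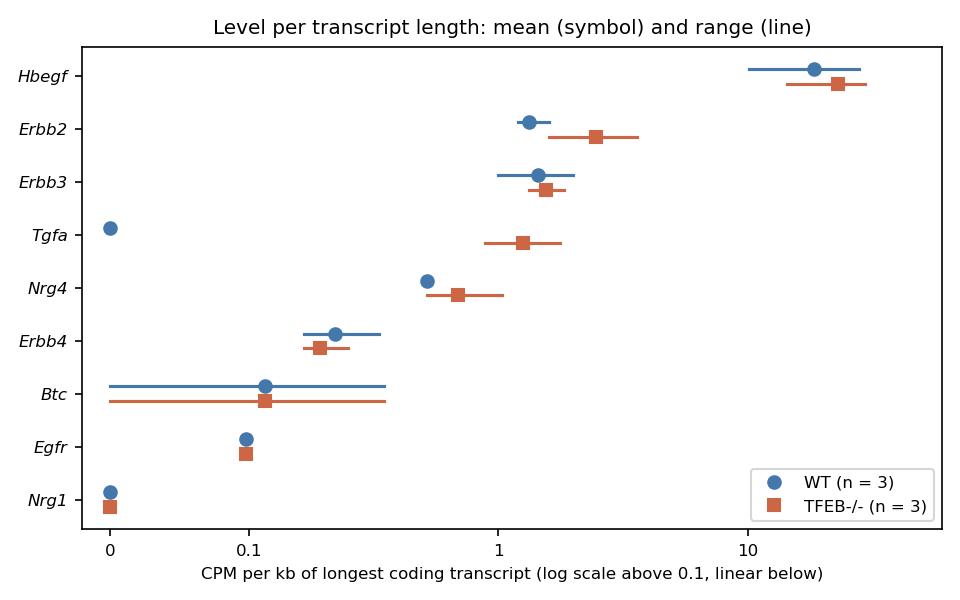
CPM per kb of the longest coding transcript (horizontal axis, logarithmic above 0.1 and linear below) for each member in WT (circles) and TFEB-/- (squares), with the mean as a symbol and the range over 3 libraries as a line. Hbegf stands apart in both groups, and Tgfa lies at 0 in WT and beside Erbb3 and Nrg4 in TFEB-/-.

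Summed over the 5 ligands the level was 45.0 ± 21.7 CPM in WT and 62.0 ± 19.2 CPM in TFEB-/-, a sum made up mostly of Hbegf. Without Hbegf the ligands summed to 2, 1 and 1 CPM in WT and to 11, 6 and 5 CPM in TFEB-/-, with Tgfa as the largest part of the latter. Tgfa was chosen by its step between the groups, so the separation of these sums follows from that choice. Nrg4 and Btc, the other detected ligands in this sum, each overlapped between the groups. The 4 receptors summed to 25, 15 and 17 CPM in WT and to 32, 24 and 19 CPM in TFEB-/-. The receptor sums overlapped between the groups.

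Some markers of other cell types were higher in TFEB-/-. In the fibroblast and the smooth muscle lists the sums overlapped once 1 gene, Gsn or Acta2, was left out. The sums of the macrophage list stayed apart without its most abundant gene, Lyz2. The 10 fibroblast markers summed to 245 to 271 CPM in WT and 325 to 414 CPM in TFEB-/-. Without the actin-severing protein gene Gsn, at 134.7 ± 5.13 and 228 ± 22.9 CPM (SD, n = 3 each, limma adjusted p = 0.0214), the sums overlapped at 109 to 132 and 123 to 169 CPM. Of the 10, 2 were called higher, against 3.92% of all genes, and the median log2 change was 0.24, that of all genes. The other call, Pdgfra, was at 2 CPM in every WT library and 3 CPM in every TFEB-/- library, a single rounding step with no spread. The 9 smooth muscle and pericyte markers summed to 368 to 458 and 554 to 565 CPM. Without Abcc9, the most abundant of the 9, the sums stayed apart at 233 to 277 and 307 to 393 CPM. Without smooth muscle actin, Acta2 (84.7 ± 28.9 and 193 ± 36.7 CPM, limma adjusted p = 0.0876), they overlapped at 284 to 392 and 332 to 393 CPM. The median log2 change of the 9 markers was 0.08, and the proteoglycan gene Cspg4 alone was called (limma adjusted p = 0.0374). The 12 macrophage markers summed to 21 to 32 and 44 to 54 CPM, and to 15 to 23 and 28 to 34 CPM without the lysozyme gene Lyz2. Of these 9 were tested and 0 were called, against 4.44% of all genes tested. Their log2 changes ran from 0.25 to 1.13, with a median of 0.61 against 0.24 for all genes. The pan-leukocyte gene Ptprc and the receptor gene Cx3cr1 were at 0 in all libraries. The endothelial sums given above overlapped, with a median log2 change of −0.16, as did those of 7 epicardial and mesothelial markers at 14 to 17 and 15 to 18 CPM. Gsn, Acta2, Pdgfra, Cspg4 and Lyz2 were named after their values were seen. The part of these cell types, or of the lower mitochondrial share, in the level of Tgfa was not tested. With all libraries rescaled by their median ratio, Tgfa was at 6.78, 4.92 and 3.74 CPM in TFEB-/-.

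The other genes of the pathway were described through 6 lists with 90 genes, of which 81 were tested. In limma 0 of the 81 were called in either direction, against 4.44% of all genes tested. The same share is the background for the 0 calls of each list below. An unadjusted p below 0.05 was found for 11 of the 81 (13.6%), against 23.3% of all genes tested. Of these 11, 10 were higher and 1 was lower in TFEB-/-. The groups did not overlap in 18 of the 81 (22.2%), against 23.4% of all genes, and the median log2 change was 0.21 against 0.24 for all genes.

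Of 6 other EGF-family ligands, Areg, Ereg, Epgn and Nrg3 were listed at 0 in all libraries. Egf, the founding ligand of the EGF receptor, was at 10, 4 and 15 CPM in WT and at 3 CPM in each TFEB-/- library. All TFEB-/- values lay below all WT values, with a log2 change of −1.36 (SE 0.48, limma adjusted p = 0.184). Nrg2, a neuregulin that binds ErbB3 and ErbB4, was at 0, 0 and 1 CPM in WT and at 3, 2 and 2 CPM in TFEB-/- (log2 change 1.96, SE 0.50, limma adjusted p = 0.109). Neither passed the threshold. The Egf value passed without WT replicate 2 (adjusted p = 0.0356), and that of Nrg2 passed without WT replicate 3 (adjusted p = 0.0144) and with robust hyperparameters (adjusted p = 0.0366). In both genes the library left out held the WT value nearest to TFEB-/-. The passes without a single library thus lend no support.

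Of the sheddases and their regulators, 9 of 11 were tested and 0 were called, with a median log2 change of 0.21. The proteases that release most of these ligands, Adam17 and Adam10, were at 18.0 ± 4.36 and 20.7 ± 3.51 CPM and at 9 ± 2 and 7.67 ± 1.53 CPM in WT and TFEB-/-. The protease inhibitor Timp3 and the neuregulin-cleaving protease Bace1, the most abundant of the list, had log2 changes of 0.50 and 0.21 (adjusted p = 0.269 and 0.585). Bace1 was at −0.02 after median-ratio scaling.

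Of 18 genes that restrain or degrade the receptors, 0 were called, with a median log2 change of 0.24. The ubiquitin ligase Nedd4 was at 215.7 ± 35.1 CPM in WT and 273.7 ± 23.8 CPM in TFEB-/- (log2 change 0.35, adjusted p = 0.223), and the late endosome GTPase Rab7 had a log2 change of 0.15 (adjusted p = 0.515). Errfi1, a feedback inhibitor of the EGF receptor, was at 18.3 ± 6.66 and 17.3 ± 3.21 CPM, and its groups overlapped.

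In the adaptor and RAS-ERK list, 0 of 19 were called, with a median log2 change of 0.17. The phosphatase Ptpn11 and the kinase Map2k2, the most abundant of the list, had log2 changes of 0.29 and 0.34 (adjusted p = 0.287 and 0.316). The ERK-activated kinase Rps6ka1, named after its values were seen, came nearest to the threshold, at 3, 3 and 2 CPM in WT and 7, 5 and 6 CPM in TFEB-/- (log2 change 1.04, SE 0.19, limma adjusted p = 0.0592). In the PI3K-AKT, PLCG and STAT list 0 of 18 were called, with a median log2 change of 0.13, and the kinases Akt1 and Akt2 had log2 changes of 0.03 and −0.01 (adjusted p = 1 for both).

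Of 18 genes that respond to ERK or feed back on it, 15 were tested and 0 were called, with a median log2 change of 0.21. Fos and Egr1, the most abundant, had log2 changes of 0.49 and 0.21 (adjusted p = 0.466 and 0.697). Etv5, an ETS factor gene induced by ERK and named after its values were seen, was at 6, 6 and 10 CPM in WT and at 12, 16 and 22 CPM in TFEB-/- (log2 change 1.13, SE 0.31, limma adjusted p = 0.121). The ERK phosphatase Dusp6 was at 8 ± 1 and 10 ± 4.36 CPM, and the feedback inhibitor Spry2 at 11.3 ± 0.577 and 11 ± 1 CPM, both with overlapping groups.

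**Figure D4:**
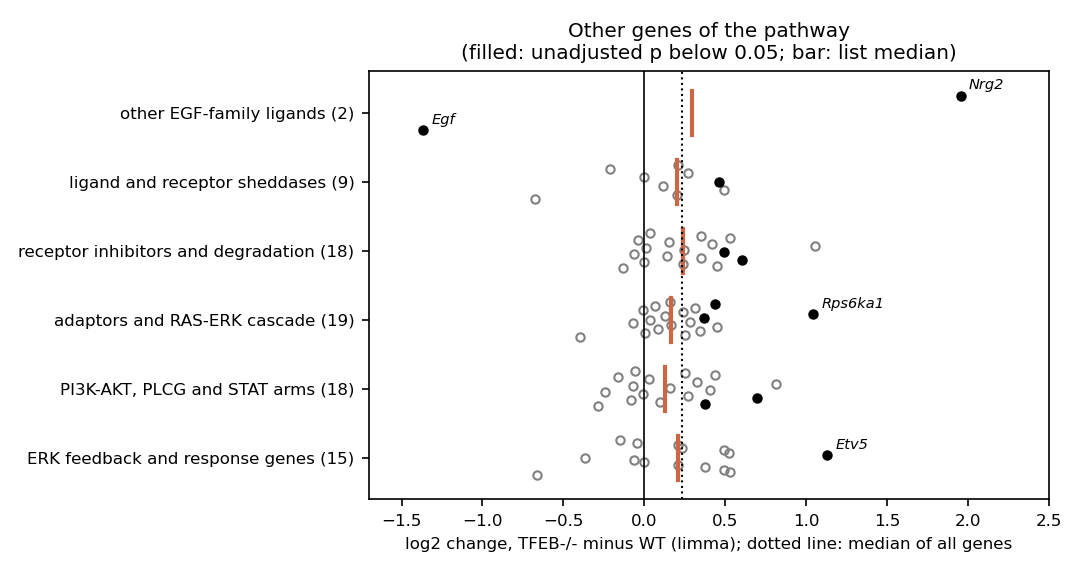
Log2 change (horizontal axis, TFEB-/- minus WT, limma) of the 81 tested genes in 6 pathway lists (number tested in brackets), with genes at an unadjusted p below 0.05 filled and the list median as a bar. Egf at −1.36 and Nrg2 at 1.96 lie farthest out, and the list medians run from 0.13 to 0.30, on both sides of the dotted median of all genes at 0.24.

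Over the 6 libraries, the 3 genes most like Tgfa in log2(CPM + 0.5), among 10422 tested genes averaging 2 CPM or more, were Galns, Krt80 and Tmem97 (Pearson r = 0.999 each). Galns, a lysosomal sulfatase, was at 4 CPM in each WT library and at 10, 9 and 8 CPM in TFEB-/-. The keratin Krt80 was at 1 CPM in each WT library and at 7, 6 and 5 CPM in TFEB-/-. The sterol-regulated membrane protein Tmem97 was at 2 CPM in each WT library and at 6, 5 and 5 CPM in TFEB-/-. Tgfa was itself chosen for its step between the genotypes, so a step in the genes most like it follows from the choice.

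Nearest to Hbegf were Hadha (r = 0.991), an enzyme of fatty acid oxidation, Vgll4 (r = 0.985) and the cell cycle inhibitor Cdkn1a (r = 0.981). Cdkn1a was at 44, 28 and 19 CPM in WT and at 37, 28 and 48 CPM in TFEB-/-, so WT replicate 1 and TFEB-/- replicate 3 were high in both. Nearest to Erbb2 were the phosphatase Ctdp1 at 8, 7, 7 and 11, 9, 8 CPM, Knop1 at 7, 6, 6 and 10, 8, 7 CPM, and the sulfotransferase Chst14 at 4, 3, 3 and 8, 5, 4 CPM (r = 0.999, 0.999 and 0.998).

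Within 100 kb of the 9 genes the table held 69 annotated neighbours, 43 of them listed at 0 in all libraries. Of 17 annotations that overlap a member, 15 were at 0, among them Egfros in Egfr and Gm43917 in Tgfa. The other 2 were Fbxo22, which overlaps Nrg4, and Mien1, which overlaps the end of Erbb2, both on the opposite strand. Whether the values were made with strand is not given in the sources used here, so some reads of Nrg4 and Erbb2 cannot be told apart from theirs. Of 25 tested protein-coding neighbours 0 were called, against 4.44% of all genes tested. The processed pseudogene Gm10443, in the window of Tgfa and named after its values were seen, was called. Its start lies 138.8 kb downstream of the Tgfa start. It was at 19, 22 and 17 CPM in WT and 33, 33 and 31 CPM in TFEB-/- (log2 change 0.73, adjusted p = 0.0344 in limma). The groups did not overlap in 10 of the 25, against 23.4% of all genes tested. Over all members, 20 of the 25 lay above the median change of all genes, Mien1 only just (0.238 against 0.235). These were all 6 of Erbb2 (median log2 change 0.69), 10 of the 11 of Erbb3 (0.48) and 4 of the other 8. Those of Erbb2 included Stard3, a cholesterol carrier of late endosomes (19, 21 and 14 CPM in WT and 38, 29 and 28 CPM in TFEB-/-, adjusted p = 0.106), and the sarcomere protein gene Tcap. Both tested coding neighbours of Tgfa, Fam136a and Snrpg, had log2 changes of 0.25 and 0.20, close to the median of all genes. The window of 100 kb was chosen after the values were seen.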

How the data were processed

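Per the labels' protocols, RNA was extracted with TRIzol and made into TruSeq Stranded mRNA libraries. The deposited table holds a score, CPM that the authors rounded to whole numbers. Its name gives kallisto as the tool. Per the submitters' processing notes aligners (STAR and HISAT2), quantifiers (RSEM, Salmon, kallisto and StringTie), edgeR and DESeq2 were named, with build GRCm38 and no roles. Which tool made the values, and any scaling by length, is not given in the sources used here.

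Names turned into dates (26) were restored by Ensembl ID, 303 missing names were replaced by IDs, and entries sharing a symbol (67 beyond the first) were summed. The genes reaching 1 CPM in 3 or more libraries were compared with limma 3.58.1 (R 4.3.3) on log2(CPM + 0.5), genotype as the only term, with a trended eBayes, two-sided p-values and Benjamini-Hochberg adjustment over all 12437 genes. Fold changes on this scale understate those of low genes. The model was tested on simulated data. Median-ratio scaling used 7871 genes at 5 CPM or more in every library.

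The members and lists were chosen with earlier results of these data known. Named genes are the members, Tfeb, the called or else 2 most abundant genes of each list, and the 3 genes most like Tgfa, Hbegf and Erbb2. Adam10, Adam17, Errfi1, Rps6ka1, Etv5, Dusp6, Spry2, Ncam1, Lpar3, Tnni1, marker genes and neighbours were added after values were seen. A longer form of the CLEAR element was also searched for and is not reported. Annotation came from GENCODE M21 and RefSeq (GRCm38.p6).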

Additional observations from a re-analysis of the deposited data

How the results depend on the processing

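Of the members other than Tgfa, 0 were called in limma under any of the 15 alternatives, and the mean of Tgfa in TFEB-/- lay between 4.5 CPM (without replicate 1) and 7.61 CPM (rescaled without mitochondrial transcripts). Erbb2 kept its direction in all 15, with a log2 change of 0.48 to 1.04 and an adjusted p of 0.0917 to 0.459, as did Hbegf at 0.01 to 0.73 (adjusted p = 0.339 to 1). Rounding to whole CPM and unknown depth limit what can be seen in members of 1 to 3 CPM.

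Over all genes, 780 were higher with robust hyperparameters, and 199 were lower with median-ratio scaling and 188 without mitochondrial transcripts, which move the median change from 0.24 to 0.01 and 0.02. Leaving out 1 library at a time gave 248 to 516 higher genes, with 270 without WT replicate 2, 248 without WT replicate 3 and 272 without TFEB-/- replicate 3. These scaling and single-library values keep the 12437 genes, less the mitochondrial ones where removed. That was decided after seeing the counts with the 1 CPM filter applied anew, which are 413 higher and 218 lower with median-ratio scaling, and 154 (without TFEB-/- replicate 3) to 406 higher (without WT replicate 1) without single libraries, with 196 without TFEB-/- replicate 1. The members called other than Tgfa were 0 either way. With the replicate number as a block 159 were higher and 26 lower, Tfeb was at −1.85 (adjusted p = 0.112), and of the members none gained a call. Whether the numbers pair the libraries could not be settled with 3 libraries per group. Same-numbered deviations from the group means had correlations of 0.28, −0.05 and 0.18 over 7871 genes. Replicates 1 and 3 of each group correlated best with their own number, and replicate 2 of neither group did. Tfeb lay between −2.05 and −1.65 without any one library, and its adjusted p was above the threshold without any except WT replicate 1 (0.0589 to 0.109).

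Pathway genes called higher numbered 2 with a filter of 5 CPM (Rps6ka1, Etv5), 1 with median-ratio scaling and 1 without mitochondrial transcripts (Rps6ka1 in both), and 3 with robust hyperparameters (Nrg2, Rps6ka1, Etv5). Leaving out single libraries gave 0 to 2 higher (Cbl without WT replicate 1, Nrg2 and Pik3cd without WT replicate 3, Hgs and Mapk3 without TFEB-/- replicate 2) and 0 to 1 lower (Egf without WT replicate 2, Spred1 without TFEB-/- replicate 2). Cbl was then at 0 CPM in each WT library and 1 CPM in each TFEB-/- library, a single rounding step. Pik3cd was then at 1 CPM in each WT library and 3 CPM in each TFEB-/- library. With no spread left in either group, the calls of Cbl and Pik3cd carry no information. In the order of levels per kb in TFEB-/-, 4 of 9 members kept their place with the median transcript length, which by construction moves genes with short isoforms up.

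The log2 changes near 0 that turned sign with median-ratio scaling and without mitochondrial transcripts were those of Akt1 (−0.21 and −0.20), Bace1 (−0.023 and −0.013), Egr1 (−0.024 and −0.014), Erbb3 (−0.080 and −0.071), Hadha (−0.13 and −0.12), Rab7 (−0.085 and −0.075) and Vgll4 (−0.051 and −0.042). Without single libraries Akt1 ran from −0.29 to 0.29, Akt2 from −0.16 to 0.092, Erbb3 from −0.079 to 0.39 and Erbb4 from −0.28 to 0.16. None of these values was called.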
